A study of Mus musculus with 6 samples.

Results

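The cytochrome P450 enzymes that turn cholesterol into bile acids were compared between livers of adult male C57BL/6 mice with and without the nuclear receptors FXR (gene Nr1h4) and SHP (gene Nr0b2) in hepatocytes. The 7 genes were taken by name from the 48699 rows of the deposited expression table: Cyp7a1, Cyp8b1, Cyp27a1, Cyp7b1, Cyp39a1, Cyp46a1 and Cyp2c70. The knockout group was 3 liver libraries from mice labelled hepatocyte-specific fxr-/- shp-/-. The control group was 3 liver libraries from mice of genotype Fxrfl/fl Shpfl/fl, homozygous for both floxed alleles. All mice were 10 to 12 weeks old and had fasted for 8 to 10 hours overnight. The column names of the deposited expression table mark every library of both groups as chow. The sources used here do not name the promoter or Cre line behind the deletion, which is limited to hepatocytes by its label. The labels number the libraries as replicates without saying more, so the p-values measure the spread between these libraries, which may be technical. Each library is called a liver below, though the labels do not say that each came from its own mouse.

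Bile acids are made in hepatocytes by 2 routes. The classic route starts with the 7α-hydroxylation of cholesterol by Cyp7a1, its rate-limiting step, and Cyp8b1 then adds the 12α-hydroxyl group that makes cholic acid. In the alternative route Cyp27a1, a mitochondrial enzyme, oxidises the side chain first, and Cyp7b1 adds the 7α-hydroxyl group to the resulting oxysterols. Cyp46a1 turns cholesterol into 24-hydroxycholesterol, mainly in brain neurons, Cyp39a1 adds a 7α-hydroxyl group to that product, and Cyp2c70 makes the muricholic acids of mice. FXR senses bile acids and induces SHP, and SHP is known to repress Cyp7a1 and Cyp8b1 by acting on LRH-1 (gene Nr5a2) and HNF4α at their promoters.

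Expression is given as FPKM, fragments scaled by transcript length and by library size, so levels of different genes can be set side by side. The steps in low FPKM values correspond to library totals of 13.9 to 14.1 M fragments in knockout livers and 13.2 to 14.1 M fragments in control livers. The FPKM of all genes summed to 610618 to 697877 in knockout livers and 702759 to 841745 in control livers, so these sums did not overlap. Defining hepatocyte genes were abundant in every library, with a summed level of 49469 to 74866 FPKM for 8 markers in knockout livers and 80031 to 101311 FPKM in control livers. Both deleted genes fell. Nr0b2 had 0.216, 0.0734 and 0.293 FPKM in knockout livers, against 14.7, 17.6 and 18.7 FPKM in control livers (log2 fold change -3.91, SE 0.16, limma adjusted p = 0.000277). Nr1h4 had 21.1, 15.5 and 22.0 FPKM in knockout livers, against 59.8, 71.8 and 68.0 FPKM in control livers (log2 fold change -1.73, SE 0.17, limma adjusted p = 0.0172). Nr0b2 was called in 6 of 6 fits that left out 1 library and Nr1h4 in 1 of 6, that without control replicate 3; its log2 fold change in these fits was -1.82 to -1.58, with limma adjusted p of 0.0156 to 0.133. Control replicate 3 stood apart from its group. Across genes its log2 values correlated with control replicates 1 and 2 at 0.952 and 0.955, where those correlated at 0.983 with each other. Its correlation with the knockout libraries was 0.954 to 0.966. Results that rest on this library are given with and without it.

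The sequence before the start of transcription was read for the members that RefSeq's promoter table (GRCm38.p6) holds, which are Cyp8b1, Cyp27a1, Cyp2c70 and Cyp46a1; Cyp7a1, Cyp7b1 and Cyp39a1 were not used here. Shown are the 250 bases before the start of the members whose mean was higher in knockout livers (Cyp8b1 and Cyp2c70) and of Cyp27a1, whose mean was lower. Each is written 5′ to 3′ on the strand of its gene, and capitals mark the motif matches described next. RefSeq's start lies 39 bases before the GENCODE gene for Cyp27a1 and 47 bases inside it for Cyp2c70, while that of Cyp8b1 is the same in both. Positions are counted from RefSeq's start.
Cyp8b1, chr9:121916306-121916555, minus strand: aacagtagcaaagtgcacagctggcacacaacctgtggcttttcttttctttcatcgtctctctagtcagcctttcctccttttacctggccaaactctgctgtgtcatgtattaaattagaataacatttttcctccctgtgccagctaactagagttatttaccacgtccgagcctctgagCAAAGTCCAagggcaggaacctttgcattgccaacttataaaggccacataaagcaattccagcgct
Cyp2c70, chr19:40187287-40187536, minus strand: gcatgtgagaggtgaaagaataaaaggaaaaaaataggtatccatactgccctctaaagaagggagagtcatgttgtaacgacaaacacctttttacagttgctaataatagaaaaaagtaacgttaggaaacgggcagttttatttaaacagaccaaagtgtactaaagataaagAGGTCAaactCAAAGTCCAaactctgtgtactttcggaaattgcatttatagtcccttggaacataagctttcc
Cyp27a1, chr1:74713285-74713534, plus strand: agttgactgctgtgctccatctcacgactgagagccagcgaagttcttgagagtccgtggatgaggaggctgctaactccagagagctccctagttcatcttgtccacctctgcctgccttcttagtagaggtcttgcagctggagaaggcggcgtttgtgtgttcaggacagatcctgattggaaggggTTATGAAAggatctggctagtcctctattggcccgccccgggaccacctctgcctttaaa

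Both strands of these windows were searched for 4 patterns. TCAAGG, a form of the core of sites bound by LRH-1, was found in none of the 4 members' windows. It was found in 12.5% of all 32851 windows of this length in the table. Other forms of that core were not searched, so a window without TCAAGG may still hold such a site. One such form, CCAAGG, can be read in the printed Cyp8b1 window, where it starts within the last capitals. It can also be read on the other strand of the Cyp2c70 window, printed there as ccttgg. The share of all windows with CCAAGG was not counted. AGGTCA, the nuclear receptor half-site, was found in Cyp2c70 at positions -74 to -69 and in 14.0% of all windows. TTATGNAA, the pattern used for the D-box of clock-controlled genes, was found in Cyp27a1 at positions -60 to -53 and in 3.07% of all windows. CAAAGTCCA, a sequence bound by HNF4α and added to the search after the sequences were read, was found in Cyp8b1 at positions -67 to -59 and in Cyp2c70 at positions -64 to -56. It occurs in 0.384% of all windows and overlaps no match of the other patterns searched. Cyp46a1 had none of these patterns in its window. A match describes the letters only, and binding was not measured.

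No member passed the test between the groups with all 6 libraries. Of the 7 genes, 6 averaged 0.5 FPKM or more over the libraries and were tested with limma on log2(FPKM + 1); 0 were higher and 0 lower at an adjusted p of 0.05. Of the 11810 genes tested, 0.313% were called, 0.169% higher and 0.144% lower. At an unadjusted p of 0.05, 1 member was lower (Cyp27a1) and 0 were higher, where 14.9% of all genes tested passed. The log2 fold change was positive for 4 members and negative for 2, with a median of 0.26, where the median of all genes tested was -0.01. The groups did not overlap for Cyp27a1 and Cyp46a1, both lower in knockout livers; of the genes tested, 22.9% did not overlap and 11.6% did not overlap with the knockouts lower. In the authors' deposited table, 1 of the 7 members had a q-value under 0.05, Cyp46a1, where 4.58% of the genes with a test were called.

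**Figure D1:**
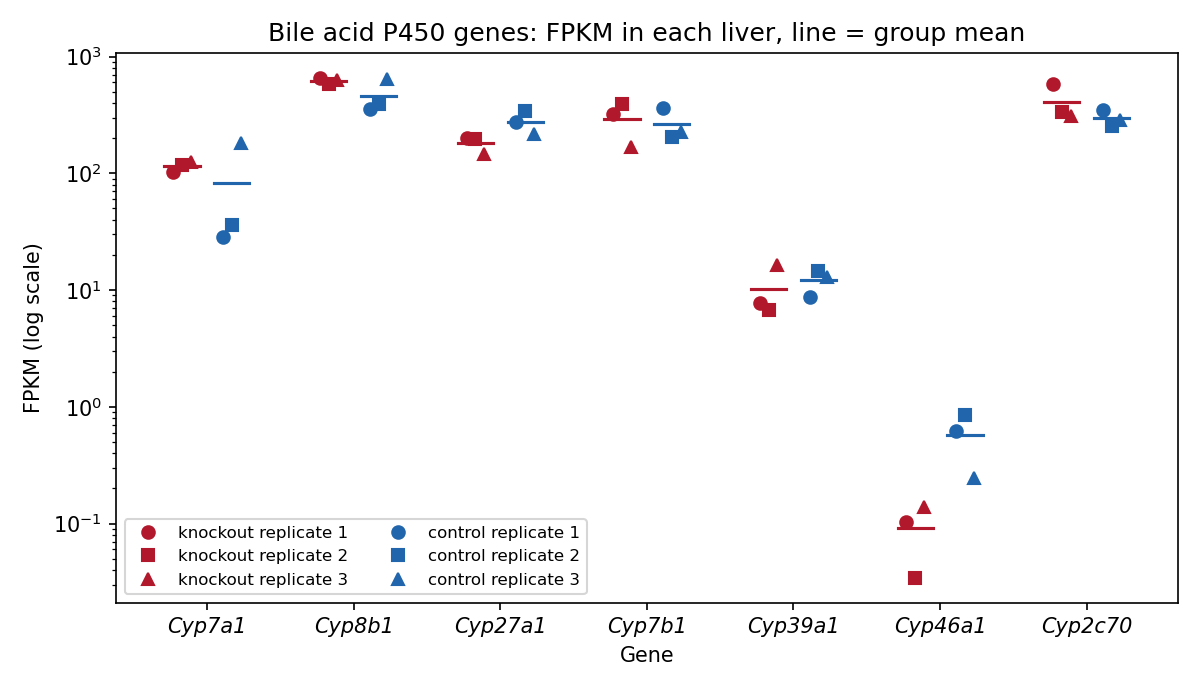
FPKM on a log axis for each of the 7 genes, with 1 point per liver (knockout in red, control in blue) and a line at the group mean. The 3 knockout livers lie close together for Cyp7a1 (102 to 126 FPKM), while the control livers range between 28.6 and 181 FPKM, with replicate 3 highest.

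Cyp7a1 (ENSMUSG00000028240.2, chromosome 4, 6265612 to 6275633, minus strand, GRCm38) had 102, 118 and 126 FPKM in knockout livers, against 28.6, 36.2 and 181 FPKM in control livers. The knockout livers lay above control replicates 1 and 2 and below control replicate 3, which held the highest value of the 6. The means were 115 ± 11.9 FPKM in knockout livers and 81.8 ± 85.6 FPKM in control livers (SD, n = 3 each). The log2 fold change was 0.99 (SE 0.62, limma adjusted p = 0.484), with a 95% interval of -0.46 to 2.43. The highest value was 1.23 times the lowest among knockout livers and 6.32 times the lowest among control livers. The estimated number of fragments was between 6012 and 7337 per knockout library and between 1572 and 10334 per control library, so counting error is small beside this spread.

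Without control replicate 3, Cyp7a1 was higher in knockout livers, at 3.56 times the mean of the other control livers. The log2 fold change was then 1.80 (SE 0.16, limma adjusted p = 0.00932), with a 95% interval of 1.42 to 2.19. Cyp7a1 was the 1 member of 6 called in that fit, where 2.05% of 11800 genes were called, 1.31% higher and 0.746% lower. Leaving out any 1 of the other 5 libraries gave log2 fold changes of 0.49 to 1.07 and limma adjusted p of 0.589 to 0.767. With library weights estimated by limma in place of equal weights, Cyp7a1 was called (log2 fold change 1.57, limma adjusted p = 0.0422), where 4.77% of all genes were, 2.76% higher and 2.01% lower. Such weights are estimated from the same libraries and are lower for those that stand apart from their group. This fit is therefore not independent of the one without control replicate 3.

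Cyp8b1 (ENSMUSG00000050445.4, chromosome 9, 121914356 to 121916305, minus strand), the 12α-hydroxylase, is a gene of 1 exon and was the most abundant member. It had 655, 577 and 630.4 FPKM in knockout livers, against 354, 391 and 639 FPKM in control livers. The groups overlapped only through control replicate 3, as for Cyp7a1. The means were 621 ± 39.8 FPKM in knockout livers and 461 ± 155 FPKM in control livers (SD, n = 3 each), and the log2 fold change was 0.48 (SE 0.25, limma adjusted p = 0.407, 95% interval -0.10 to 1.05). Without control replicate 3 the log2 fold change was 0.74 (SE 0.16, limma adjusted p = 0.0707), still short of the threshold.

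Cyp27a1 (ENSMUSG00000026170.6, chromosome 1, 74713574 to 74737892, plus strand), the mitochondrial sterol 27-hydroxylase of the alternative route, had 201, 195 and 147 FPKM in knockout livers, against 275, 341 and 215 FPKM in control livers. Every knockout liver lay below every control liver, with control replicate 3 nearest to the knockouts. The means were 181 ± 29.5 FPKM in knockout livers and 277 ± 62.9 FPKM in control livers (SD, n = 3 each). The log2 fold change was -0.60 (SE 0.22, 95% interval -1.12 to -0.08), which did not pass after adjustment over all genes (limma adjusted p = 0.286). Without control replicate 3 it was -0.77 (SE 0.20, limma adjusted p = 0.0962). Quantile normalization, which removes the difference in summed FPKM, gave -0.37 (limma adjusted p = 0.584). Median centring gave -0.62 (limma adjusted p = 0.265). Over the 8 hepatocyte markers the median log2 fold change was -0.36 with 8 of 8 negative and 0 called. The values ran from -0.77 (Alb) to -0.01 (Cps1). The summed level of the markers did not overlap between the groups, but taken singly only 1 of the 8 did not. That was Alb, the most abundant of them, with means of 24950 FPKM in knockout livers and 40888 FPKM in control livers. Fewer hepatocytes and less RNA per hepatocyte cannot be told apart in whole liver, and their part in the Cyp27a1 difference was not tested.

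Cyp7b1 (ENSMUSG00000039519.6, chromosome 3, 18071950 to 18243338, minus strand), the oxysterol 7α-hydroxylase, had 323, 391 and 169.6 FPKM in knockout livers, against 365, 204 and 224 FPKM in control livers. The groups overlapped over most of their range, and the lowest value of the 6 was in knockout replicate 3. The log2 fold change was 0.12 (SE 0.35, limma adjusted p = 0.900), and its 95% interval of -0.71 to 0.95 leaves room for a change in either direction. Its means were 294 ± 113 FPKM in knockout livers and 264 ± 88.0 FPKM in control livers (SD, n = 3 each).

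Cyp2c70 (ENSMUSG00000060613.10, chromosome 19, 40153353 to 40187333, minus strand), which makes muricholic acids, had 583, 333 and 309 FPKM in knockout livers, against 349.8, 254 and 286 FPKM in control livers. Knockout replicate 1 was above every other library, while the other knockout livers lay within the control range. The means were 408 ± 152 FPKM in knockout livers and 297 ± 48.8 FPKM in control livers (SD, n = 3 each). Between the groups the log2 fold change was 0.41 (SE 0.27, limma adjusted p = 0.505, 95% interval -0.23 to 1.05). Without knockout replicate 1 the log2 fold change was 0.12. Cyp2c70 belongs to the large Cyp2c family of close paralogs, so its level is uncertain to the extent that their reads were mixed.

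**Figure D2:**
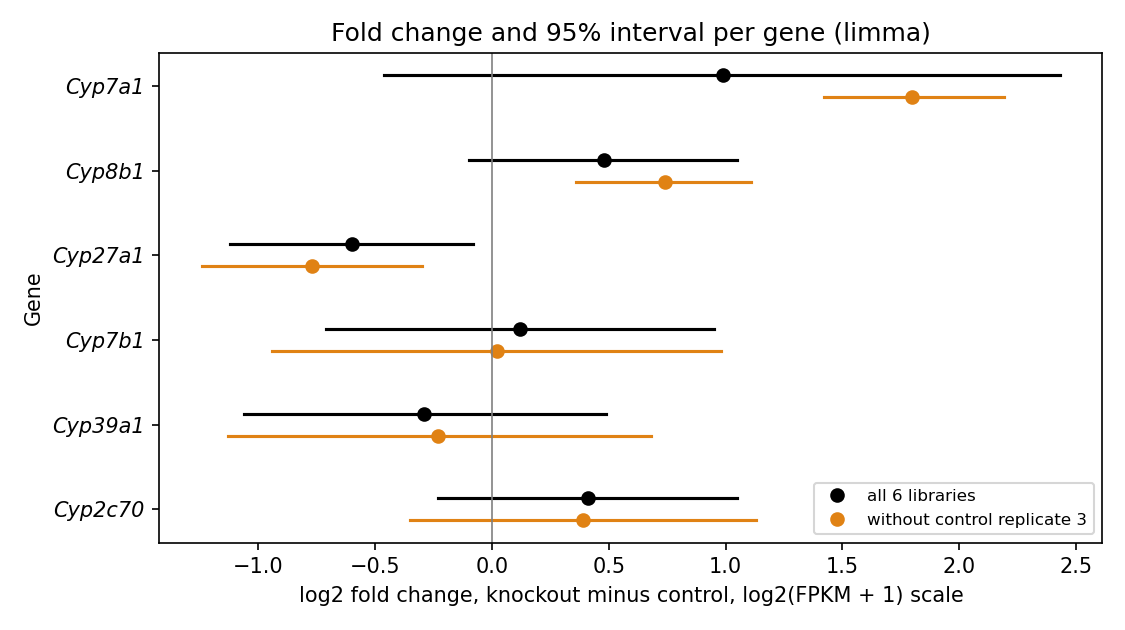
Log2 fold change (knockout minus control, log2(FPKM + 1) scale) with its 95% interval from limma for the 6 members tested, with all 6 libraries in black and without control replicate 3 in orange. Intervals are not adjusted for the number of genes; that of Cyp7a1 is -0.46 to 2.43 with all libraries and 1.42 to 2.19 without control replicate 3.

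Cyp39a1 (ENSMUSG00000023963.9, chromosome 17, 43667425 to 43751431, plus strand), the 7α-hydroxylase of 24-hydroxycholesterol, was far lower than the members of the 2 main routes. It had 7.70, 6.72 and 16.4 FPKM in knockout livers, against 8.74, 14.6 and 13.01 FPKM in control livers. Knockout replicate 3 held the highest value and the other knockout livers the lowest, so the groups overlapped. The log2 fold change was -0.29 (SE 0.33, limma adjusted p = 0.710, 95% interval -1.06 to 0.49), and the means were 10.3 ± 5.35 FPKM in knockout livers and 12.1 ± 3.05 FPKM in control livers (SD, n = 3 each).

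Cyp46a1 (ENSMUSG00000021259.4, chromosome 12, 108334381 to 108362234, plus strand), the cholesterol 24-hydroxylase, was close to the limit of detection. It had 0.103, 0.0345 and 0.138 FPKM in knockout livers, against 0.619, 0.851 and 0.246 FPKM in control livers. Every knockout value was below every control value, and control replicate 3 was again the control nearest to the knockouts. At these levels the values rest on about 3.1, 1.0 and 4.1 fragments in knockout livers and about 17.3, 25.5 and 7.1 fragments in control livers. Its mean was below the filter of 0.5 FPKM, so it had no test in the limma fit. With no filter the log2 fold change was -0.51 on the log2(FPKM + 1) scale, which understates changes of low genes (SE 0.15, limma adjusted p = 0.319). In that fit 0.0101% of 19705 genes were called. The authors' deposited table called it lower, with group values of 0.0916 FPKM in knockout livers and 0.572 FPKM in control livers (q = 0.0472), where 1.73% of its tested genes were called lower. In the authors' deposited table the q-values of the other 6 members were between 0.150 (Cyp27a1) and 0.880 (Cyp7b1).

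By mean level, Cyp8b1 was highest in both groups and Cyp46a1 lowest, although in control replicate 1 Cyp7b1 (365 FPKM) was above Cyp8b1 (354 FPKM). In knockout livers the mean FPKM followed the order Cyp8b1, Cyp2c70, Cyp7b1, Cyp27a1, Cyp7a1, Cyp39a1 and Cyp46a1. The ranges of Cyp8b1 and Cyp2c70, of Cyp2c70 and Cyp7b1, and of Cyp7b1 and Cyp27a1 overlapped there, while Cyp7a1 lay apart from both neighbours. In control livers the order was Cyp8b1, Cyp2c70, Cyp27a1, Cyp7b1, Cyp7a1, Cyp39a1 and Cyp46a1. There the ranges of Cyp2c70 and Cyp27a1 and of Cyp27a1 and Cyp7b1 overlapped, and the other neighbours did not. By mean FPKM over all 48699 genes, Cyp8b1 had rank 137 in knockout livers and rank 228 in control livers, and Cyp7a1 had rank 710 in knockout livers and rank 1025 in control livers.

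The summed FPKM of the 7 genes was 1871.5, 1620.4 and 1398.4 in knockout livers, against 1382.6, 1241.4 and 1558.4 in control livers. Within these sums Cyp7a1 made up 5.47%, 7.26% and 8.99% in knockout livers, against 2.07%, 2.92% and 11.6% in control livers. Cyp27a1 made up 10.7%, 12.1% and 10.5% in knockout livers, against 19.9%, 27.5% and 13.8% in control livers. The share of Cyp27a1 did not overlap between the groups and that of Cyp7a1 did, through control replicate 3.

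Ratios within a library do not depend on how that library was scaled. The ratio of Cyp7a1 to Cyp27a1, the entry enzymes of the classic and the alternative route, was 0.510, 0.602 and 0.855 in knockout livers, against 0.104, 0.106 and 0.838 in control livers. Control replicates 1 and 2 stood together at a low ratio, and control replicate 3 was within the range of the knockout livers. The ratio of Cyp8b1 to Cyp7a1 was 6.40, 4.91 and 5.01 in knockout livers, against 12.4, 10.8 and 3.54 in control livers. The ratio of Cyp7b1 to Cyp7a1 was 3.15, 3.33 and 1.35 in knockout livers, against 12.8, 5.63 and 1.24 in control livers. That of Cyp2c70 to Cyp7a1 was 5.70, 2.83 and 2.46 in knockout livers, against 12.2, 7.01 and 1.59 in control livers. In each of the 3 ratios with Cyp7a1 as the denominator, control replicate 3 was the lowest library and control replicate 1 the highest.

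**Figure D3:**
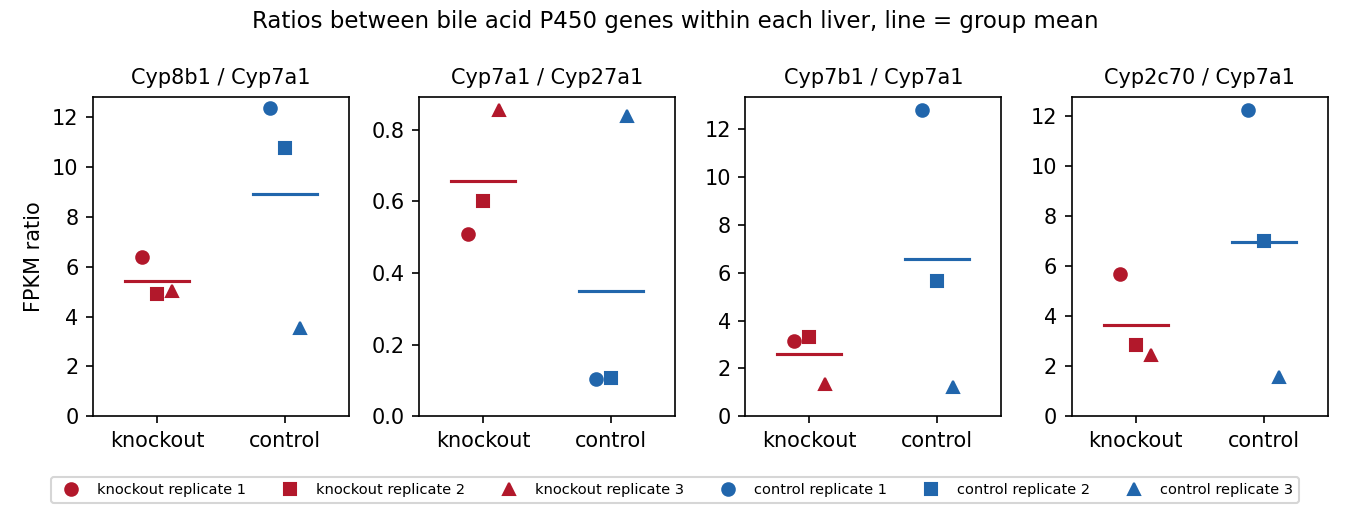
FPKM ratios between pairs of the genes in each liver, knockout on the left and control on the right of each panel, with a line at the group mean. Control replicate 3 is the highest control for Cyp7a1 over Cyp27a1 and the lowest library in the other 3 panels; for Cyp7a1 over Cyp27a1 it is at 0.838, where the other controls are at 0.104 and 0.106.

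Several gene groups were also high in control replicate 3. The 16 cholesterol synthesis and uptake genes, a list tied to the transcription factor SREBP2, summed to 605.6, 534 and 1445 FPKM in knockout livers, against 491, 446 and 1608 FPKM in control livers. The sum of 12 immediate-early genes, which respond within minutes to stress, was 55.8, 55.0 and 161 FPKM in knockout livers, against 40.5, 48.7 and 712 FPKM in control livers, and 11 of the 12 were highest in control replicate 3. In that library Btg2 reached 158 FPKM, Jun 125 FPKM and Ier2 85.6 FPKM. The 13 acute phase genes summed to 13945, 28440.1 and 28176 FPKM in knockout livers, against 11675, 13488 and 44134 FPKM in control livers, with 9 of 13 highest in control replicate 3. Saa1, a serum amyloid protein, had 621, 5462 and 5049.95 FPKM in knockout livers, against 125, 129.7 and 10483 FPKM in control livers. Of these 3 lists 0 genes passed limma's adjusted threshold, and 1, an acute phase gene, was higher at an unadjusted p of 0.05. The median log2 fold change was -0.07 for the cholesterol list, -0.35 for the immediate-early list and 0.37 for the acute phase list. Without control replicate 3 these medians were 0.51, 0.83 and 0.94, and 0 genes of the 3 lists were called. Cyp7a1 was also highest in control replicate 3. Knockout replicate 1 was low in the acute phase list, and knockout replicates 1 and 2 were low in the other 2 lists. Cyp7a1 had 102 and 118 FPKM in knockout replicates 1 and 2. The part of these gene groups in the Cyp7a1 values was not tested. The 7 macrophage markers summed to 93.6, 229 and 88.4 FPKM in knockout livers, against 64.1, 49.7 and 135 FPKM in control livers, and were above 0 in every library. The groups overlapped through control replicate 3. All 7 log2 fold changes were positive, with a median of 0.79, and of 1.00 without that library. Sums were 34.2 to 65.3 FPKM in knockout livers and 48.1 to 59.7 FPKM in control livers for sinusoidal endothelial markers, and 96.3 to 189.5 FPKM in knockout livers and 95.8 to 185 FPKM in control livers for stellate cell markers. Cholangiocyte markers, mostly Spp1, summed to 59.3 to 64.2 FPKM in knockout livers and 34.0 to 44.5 FPKM in control livers. Lymphocyte markers summed to 1.08 to 3.42 FPKM in knockout livers and 1.81 to 2.25 FPKM in control livers. Ms4a1, a B cell marker, was at 0 in knockout replicate 3 and control replicate 2. Of the genes tested in these 5 lists 0 passed limma's adjusted threshold and 2 were higher at an unadjusted p of 0.05; without control replicate 3, Spp1 was called higher (limma adjusted p = 0.0370). The part of these cells in the P450 values was not tested.

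**Figure D4:**
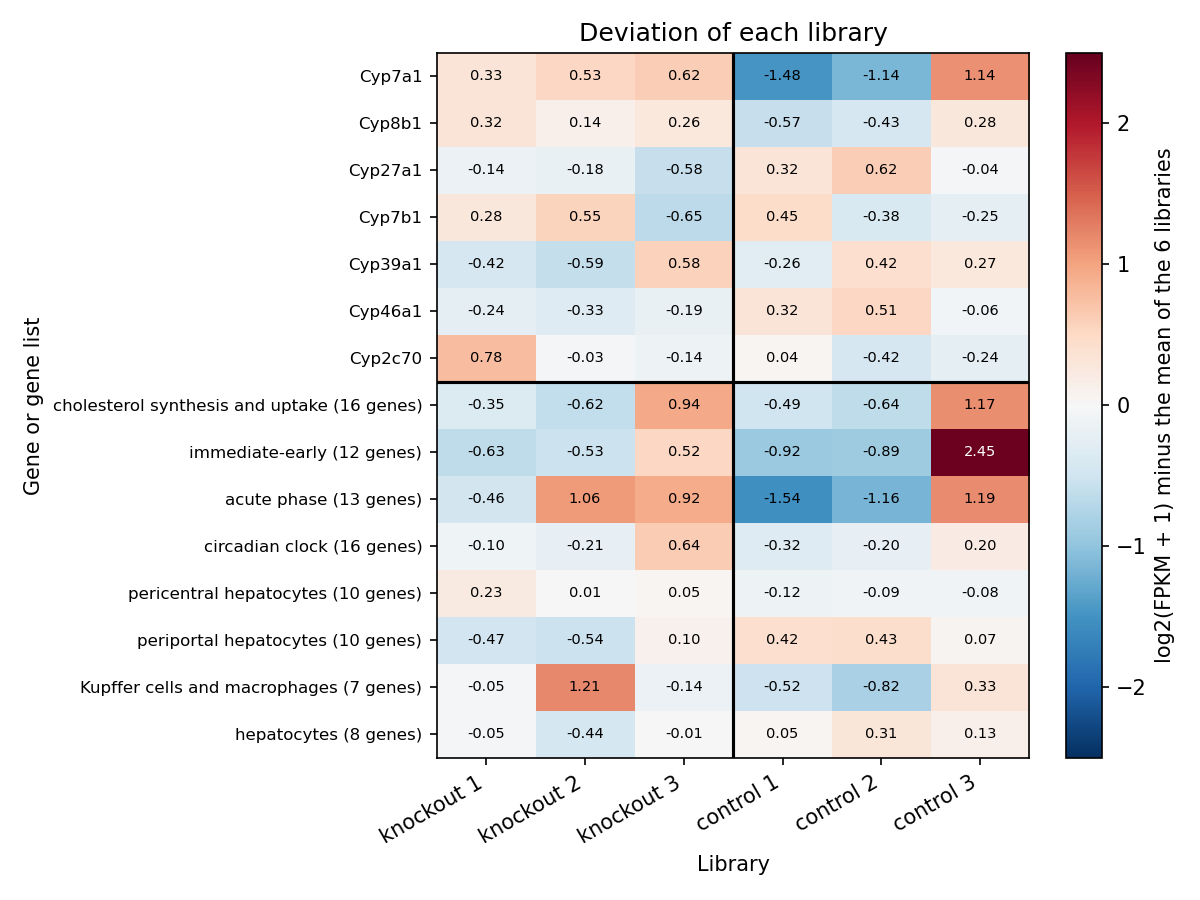
Deviation of log2(FPKM + 1) from the mean of the 6 libraries, for each of the 7 genes (upper block) and as the mean over gene lists (lower block), knockout libraries left and control libraries right. Control replicate 3 is high for Cyp7a1 (1.14) and for the cholesterol (1.17), immediate-early (2.45) and acute phase (1.19) lists.

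Cyp7a1 transcription is known to follow a daily rhythm driven in part by Dbp, a clock output factor that binds the D-box. Dbp had 16.8, 8.00 and 71.9 FPKM in knockout livers, against 2.87, 7.17 and 63.0 FPKM in control livers. It was high in knockout replicate 3 and control replicate 3, the libraries with the highest Cyp7a1 of their group. Cyp7a1 had 102, 118 and 126 FPKM in knockout livers, against 28.6, 36.2 and 181 FPKM in control livers. Knockout replicate 2 had less Dbp than knockout replicate 1 and more Cyp7a1. Bhlhe40, a clock repressor, had 35.1, 23.7 and 109 FPKM in knockout livers and 16.0, 20.6 and 48.3 FPKM in control livers. Nr1d1, the repressor REV-ERBα, had 31.5 ± 3.66 FPKM in knockout livers and 26.8 ± 3.21 FPKM in control livers (SD, n = 3 each). Of the 16 clock genes 0 passed limma's adjusted threshold and 1 was lower at an unadjusted p of 0.05. The labels give no hour of collection, and its part in the Cyp7a1 values was not tested.

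Other enzymes of bile acid synthesis, most of which act after the first P450 steps, did not pass the test either. Of 13 such genes 12 were tested, with 0 called and 0 at an unadjusted limma p of 0.05; 4 log2 fold changes were positive and 8 negative (median -0.09). Scp2, the peroxisomal thiolase that shortens the side chain, had 1647 ± 162 FPKM in knockout livers and 2107 ± 122 FPKM in control livers (SD, n = 3 each). Slc27a2, an acyl-CoA synthetase, had 908 ± 109 FPKM in knockout livers and 1055 ± 87.5 FPKM in control livers (SD, n = 3 each). Akr1c6, an aldo-keto reductase, had 979, 831 and 979 FPKM in knockout livers, against 662, 716 and 1419 FPKM in control livers, so that control replicate 3 was the highest library here as well. In 7 of these 13 genes control replicate 3 held the highest value. Ch25h, cholesterol 25-hydroxylase, was listed at 0 in control replicates 1 and 2 and at most at 0.117 FPKM elsewhere.

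Among 15 genes known to regulate Cyp7a1 or Cyp8b1, 2 were lower and 0 higher at the adjusted threshold, and these were the deleted Nr1h4 and Nr0b2, the call of Nr1h4 depending on the libraries kept. At an unadjusted limma p of 0.05, 4 were lower and 0 higher, the others being Fgf21 and Nr1i2. Of all genes tested, 14.9% passed at that p in either direction. Fgf21, a fasting hormone, had 2.35, 1.57 and 1.11 FPKM in knockout livers, against 2.87, 6.25 and 4.26 FPKM in control livers (log2 fold change -1.01, SE 0.27, limma adjusted p = 0.190). Nr1i2, the xenobiotic receptor PXR, had 20.5, 13.3 and 22.02 FPKM in knockout livers, against 27.9, 28.4 and 24.2 FPKM in control livers (log2 fold change -0.53, SE 0.20, limma adjusted p = 0.298). For both genes every knockout liver lay below every control liver. This held for 5 of the 15 regulators, the deleted genes among them, and for 11.6% of all genes tested. The remaining regulators include the factors that SHP is known to act on. Nr5a2 had 18.0, 14.8 and 16.1 FPKM in knockout livers, against 12.3, 12.3 and 15.9 FPKM in control livers (log2 fold change 0.26, SE 0.16, limma adjusted p = 0.477). Hnf4a had 134, 118 and 139 FPKM in knockout livers, against 184, 172 and 118 FPKM in control livers (log2 fold change -0.25, SE 0.20, limma adjusted p = 0.583). Nr5a2 and Hnf4a were named for their role beside SHP, after their values were seen, and were not selected by level.

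P450 enzymes need electrons from partner proteins, Por and cytochrome b5 for those of the endoplasmic reticulum and Fdx1 with Fdxr for mitochondrial Cyp27a1. Of the 6 partner genes 0 passed limma's threshold, adjusted or not, and their log2 fold changes had a median of -0.03. Por had 160 ± 42.5 FPKM in knockout livers and 176 ± 50.1 FPKM in control livers, Cyb5a had 1678 ± 321 FPKM in knockout livers and 1948 ± 399 FPKM in control livers, and Cyb5r3 had 289 ± 80.4 FPKM in knockout livers and 227 ± 40.9 FPKM in control livers (SD, n = 3 each).

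Cyp7a1 is known to be expressed mainly in hepatocytes near the central vein. Genes of that zone did not pass the adjusted test (0 of 10, with 3 higher at an unadjusted limma p of 0.05; median log2 fold change 0.15). Genes of the portal zone had 0 of 10 called and 5 lower at an unadjusted limma p of 0.05, with a median of -0.81. Of all genes tested, 14.9% passed at that p in either direction. Log2 fold changes were positive for 6 and negative for 4 central genes, and positive for 1 and negative for 9 portal genes. Every knockout liver lay above every control liver for 3 central genes and for 11.3% of all genes tested. Every knockout liver lay below every control liver for 5 portal genes and for 11.6% of all genes tested. Without control replicate 3, limma called 1 gene of the central zone higher (Rhbg) and 2 of the portal zone lower (Cyp2f2 and Hsd17b13). In that fit 1.31% of 11800 genes were called higher and 0.746% lower. The median log2 fold change was then 0.01 for the central zone and -0.93 for the portal zone. Ass1, a urea cycle enzyme of the portal zone, had 1573, 1278 and 2142.5 FPKM in knockout livers, against 2829.95, 2979.78 and 2260.0 FPKM in control livers. The most abundant gene of the central zone, Cyp2e1, had 5586 ± 954 FPKM in knockout livers and 6126 ± 629 FPKM in control livers (SD, n = 3 each). Oat, an ornithine aminotransferase of the central zone, had 1124.77, 897 and 1029 FPKM in knockout livers, against 733, 637 and 589 FPKM in control livers (limma adjusted p = 0.203). Rgn, next in level of the central list, averaged 641 FPKM in knockout livers and 826 FPKM in control livers. Pck1 averaged 1478 FPKM in knockout livers and 1491 FPKM in control livers, and Cps1 averaged 603 FPKM in knockout livers and 601 FPKM in control livers.

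**Figure D5:**
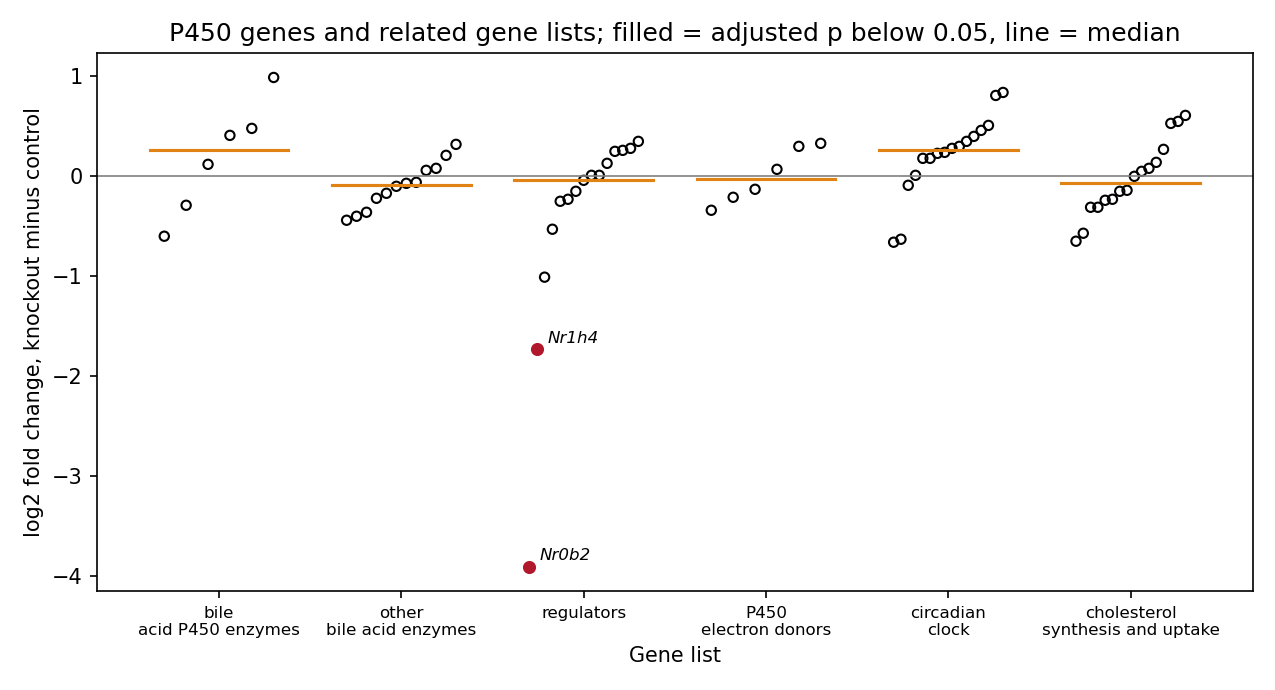
Log2 fold change (knockout minus control, log2(FPKM + 1) scale) of each tested gene in the P450 set and in 5 related lists, with an orange line at each list's median and filled points for an adjusted p below 0.05. The filled points are the deleted genes Nr1h4 (-1.73) and Nr0b2 (-3.91), and the median of the P450 genes is 0.26.

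The genes whose pattern over the 6 libraries was nearest to Cyp7a1 were sought among 6650 genes averaging 5 FPKM or more, by the root mean square difference of centred log2(FPKM + 1). Rtn4, a protein that shapes the endoplasmic reticulum, was nearest, with a difference of 0.217, and had 42.0, 51.8 and 66.0 FPKM in knockout livers, against 11.3, 21.7 and 72.3 FPKM in control livers. Csrp1, a LIM-domain protein (0.272), and Cyp4a31, of the fatty acid hydroxylase family (0.301), came next. Without control replicate 3 the 3 nearest genes were Abhd2, Rdh9 and Rhbg (0.132 to 0.178). For Cyp8b1 the nearest were Ankrd27 (0.0326), Pglyrp2 (0.0513) and 1700001C19Rik (0.0719), and without control replicate 3 they were Ankrd27, Tmco4 and Nudc (0.0352 to 0.0430). Pglyrp2, a secreted amidase made in liver, had 87.5, 83.9 and 86.7 FPKM in knockout livers, against 51.2, 52.9 and 85.5 FPKM in control livers, again with control replicate 3 at the level of the knockouts. Likeness over 6 libraries is a description and carries no test.

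Between the P450 genes themselves, the nearest pair by the same measure was Cyp27a1 and Cyp46a1 (0.183). No minimum level was applied here, and Cyp46a1 averaged 0.332 FPKM, where the log2(FPKM + 1) scale shrinks differences. The control mean was 6.24 times the knockout mean for Cyp46a1 and 1.53 times for Cyp27a1. The farthest pair was Cyp7a1 and Cyp27a1 (1.28), which deviated from their means in opposite directions in all 6 libraries.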

How the data were processed

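Liver mRNA was measured in 3 knockout and 3 control libraries, grouped by the sample titles. Per the labels' protocols, RNA came from snap-frozen tissue and libraries from a stranded mRNA kit. Software named by the submitters' processing notes, without roles, was Trimmomatic, Cuffdiff 2.2.1, STAR 2.4.2a, Picard 1.119 and bcl2fastq 2.17.1.14, with build GRCm38 (mm10). The authors deposited FPKM per library for 48699 genes. A second deposited table gives each gene's q-value and p-value beside mean FPKM levels of both groups. Neither the annotation nor the handling of reads with several matches is stated. FPKM depends on library composition, since very abundant transcripts lower the others.

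Differences (knockout minus control) were fitted by limma's trend method (version 3.58.1, R 4.3.3) to log2(FPKM + 1). The fit took 11810 genes whose average reached 0.5 FPKM, with Benjamini-Hochberg adjustment at 0.05. The procedure was tested on simulated data with independent noise in each gene and library. No simulated library was set apart as control replicate 3 was, so that run does not cover such a library. Intervals are 95% and unadjusted. An exact permutation test of 3 against 3 cannot give a p below 0.1, so none was run. Depth was read from the smallest steps in FPKM times kilobases (0.05 to 0.1) of genes with 1 transcript over 1500 bases. Coordinates and lengths are from GENCODE M21 (GRCm38).

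The 7 members, 9 pathway lists and 6 cell type lists were chosen with earlier results of these data known. Named genes were the members, the deleted genes, genes from each list (those called, or else from its 3 most abundant) and the 3 nearest to Cyp7a1 and to Cyp8b1 by pattern. Nr5a2, Hnf4a, Fgf21, Nr1i2, Ch25h, Ms4a1, Rhbg, Cyp2f2 and Hsd17b13 were named outside that rule, after their values were seen. Alternatives were other pseudocounts, filters and scalings, library weights, the replicate block and leaving out each library.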

Additional observations from a re-analysis of the deposited data

How the results depend on the processing

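With pseudocounts of 0.1 and 0.25, no filter, a filter of 2 FPKM, quantile normalization, median centring and the replicate block, 0 members were called, and each of the 6 tested members kept its direction. Library weights called 1 member, Cyp7a1 (1.57), and 563 genes in all, among them 4 of 10 portal zone genes, 2 of 16 clock genes and 1 of 10 central zone genes. Leaving out each library gave 0 to 1 members and 2 to 242 genes called in all, with 37 in the full fit; no filter gave 2. Over these leave-one-out fits the log2 fold change ranged from 0.49 to 1.80 for Cyp7a1, from 0.31 to 0.74 for Cyp8b1, from -0.77 to -0.44 for Cyp27a1, from -0.13 to 0.47 for Cyp7b1, from -0.65 to -0.06 for Cyp39a1 and from 0.12 to 0.58 for Cyp2c70. Cyp7b1 turned negative without control replicate 2 (-0.04) and without knockout replicate 2 (-0.13). The cause was not tested. Quantile normalization gave 0.72 for Cyp8b1, 0.67 for Cyp2c70 and -0.37 for Cyp27a1, and median centring gave 0.46, 0.39 and -0.62. The ratio of Cyp7a1 to Cyp27a1, knockout mean over control mean, was 1.88 with all libraries and 6.24 without control replicate 3. That of Cyp7b1 to Cyp7a1 was 0.398 with all libraries and 0.759 without control replicate 1, and that of Cyp2c70 to Cyp7a1 was 0.527 with all libraries and 0.852 without control replicate 1. Nr1h4 was also not called with no filter (limma adjusted p = 0.0654). Cyp46a1, with no filter and without control replicate 3 (added after the data were seen), had a log2 fold change of -0.67 (limma adjusted p = 0.0890). Same-numbered libraries deviated from their group means with correlations of 0.220, -0.0754 and 0.301 across genes, so the numbers were not taken to pair mice. The replicate block left 0 members called and 50 genes in all, with Cyp7a1 at limma adjusted p = 0.325. Depth limits Cyp46a1 alone among the 7 genes, at about 1.0 to 25.5 fragments per library.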
